A study of Mus musculus with 6 samples.

Results

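Interferon-stimulated genes are the genes that a cell turns on when interferons bind their receptors. The list held 48 mouse genes, named as a module of 33 genes known mainly as targets of type I interferon, 7 GTPases known mainly as targets of interferon-gamma, the transcription factor Irf1, 4 Ifitm genes and 3 Schlafen genes. All 48 were among the 29374 genes with at least one estimated read and among the 16656 genes that were tested. They were compared between Rpl22-/- and Rpl22+/+ leukemias, and the type I genes were set beside the GTPases.

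The samples were CD11b+Gr1+ splenocytes, the myeloid fraction sorted from the spleens of tumor-bearing Mll-AF9 mice. Of the 6 libraries, 3 came from Rpl22+/+ Mll-AF9 mice and 3 from Rpl22-/- Mll-AF9 mice, so both groups carry the Mll-AF9 knockin, a fusion of the Mll and AF9 genes that causes acute myeloid leukemia, and the second also lacks Rpl22, a protein of the large ribosomal subunit, from the germline. Per the study's methods, the Rpl22 alleles are on a C57BL/6 background and came into the Mll-AF9 knockin mice by crossing, and young adult mice were used. Knockin mice followed for survival were taken on signs of disease or at set times. No interferon treatment is named in the labels, so the comparison concerns levels in leukemic cells as sorted. Nothing in the labels tells whether libraries of 1 genotype are from separate mice, and the study identifies its sequenced explants by a single mouse for each genotype. The libraries of a genotype may therefore share a mouse, and each SE, SD and p-value below measures the spread between libraries and not a spread shown to lie between animals.

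Type I interferons signal through the receptor chains Ifnar1 and Ifnar2 and the kinases Jak1 and Tyk2 to a complex that contains Stat2 and Irf9 and binds a DNA element called the interferon-stimulated response element (ISRE). Interferon-gamma signals through Ifngr1 and Ifngr2 to genes that hold the gamma-activated sequence (GAS), and through Irf1. The products cut or sense foreign RNA, block virus entry, trap virus particles or, in the case of the GTPases, attack the vacuoles that hold bacteria and parasites. Myeloid cells express many of these genes at a steady level without infection.

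Libraries held 35828500 to 102866127 estimated reads. Rpl22 itself stood at 148, 235 and 152 CPM (counts scaled to a common library total) in Rpl22+/+ and at 58.3, 89.9 and 73.5 CPM in Rpl22-/- libraries (log2 fold change -1.27 ± 0.25 SE, adjusted p = 0.0106). Its mRNA was thus lower but not absent in the libraries labelled Rpl22-/-. Over genes that averaged 50 counts or more, Rpl22+/+ replicates 1 and 3 correlated at 0.992 on the log2 scale, and replicate 2 stood apart from them at 0.926 and 0.934. The sort antigen Itgam (CD11b) was present in all libraries at 815 to 2085 CPM, while Ly6g, a target of the Gr1 antibody, stood between 149 and 178 CPM in Rpl22+/+ and between 11.1 and 15.7 CPM in Rpl22-/- libraries.

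Promoter sequences are shown first, because the members that moved most differ in whether they hold an exact match to an interferon element near their start. RefSeq promoters (GRCm38.p6, 250 bases before to 50 bases after the start) were found for 36 of the 48 members. The letters GAAANNGAA, the core of an ISRE, were searched on both strands, and so was the GAS core TTCNNNGAA, which reads the same on both. Capitals mark matches to either, and matches may overlap. Each promoter is printed 5′ to 3′ on the strand of its gene.
Ifit1, chr19:34640639-34640938, plus strand: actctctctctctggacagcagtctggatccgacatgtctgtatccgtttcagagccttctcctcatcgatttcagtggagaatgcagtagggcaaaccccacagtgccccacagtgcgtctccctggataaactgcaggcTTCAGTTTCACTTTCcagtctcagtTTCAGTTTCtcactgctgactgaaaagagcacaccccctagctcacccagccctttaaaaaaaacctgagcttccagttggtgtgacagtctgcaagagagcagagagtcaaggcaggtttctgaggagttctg
Isg15, chr4:156200769-156201068, minus strand: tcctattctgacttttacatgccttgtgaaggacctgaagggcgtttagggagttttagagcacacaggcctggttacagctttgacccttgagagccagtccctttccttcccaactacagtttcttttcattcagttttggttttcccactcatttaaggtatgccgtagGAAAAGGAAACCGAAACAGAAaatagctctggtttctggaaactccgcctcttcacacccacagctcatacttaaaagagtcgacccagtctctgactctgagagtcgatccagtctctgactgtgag
Oas3, chr5:120777610-120777909, minus strand: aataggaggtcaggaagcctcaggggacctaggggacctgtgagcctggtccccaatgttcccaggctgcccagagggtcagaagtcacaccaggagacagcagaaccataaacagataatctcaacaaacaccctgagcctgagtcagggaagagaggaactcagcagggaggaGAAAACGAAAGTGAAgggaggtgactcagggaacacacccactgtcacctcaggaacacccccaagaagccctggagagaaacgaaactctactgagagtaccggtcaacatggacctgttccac
Gbp2, chr3:142620413-142620712, plus strand: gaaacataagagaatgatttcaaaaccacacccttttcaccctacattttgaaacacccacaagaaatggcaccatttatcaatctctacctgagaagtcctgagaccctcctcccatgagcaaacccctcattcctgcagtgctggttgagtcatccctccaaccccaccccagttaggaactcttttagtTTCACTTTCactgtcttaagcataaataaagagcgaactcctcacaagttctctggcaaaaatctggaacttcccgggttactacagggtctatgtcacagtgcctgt
Slfn1, chr11:83116570-83116869, plus strand: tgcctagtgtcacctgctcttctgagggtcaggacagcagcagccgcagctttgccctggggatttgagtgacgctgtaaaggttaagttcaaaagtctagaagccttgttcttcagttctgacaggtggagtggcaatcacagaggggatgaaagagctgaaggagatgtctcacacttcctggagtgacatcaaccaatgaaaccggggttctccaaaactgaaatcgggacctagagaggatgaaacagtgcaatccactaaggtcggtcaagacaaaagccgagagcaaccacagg
Ifitm1, chr7:140967826-140968125, plus strand: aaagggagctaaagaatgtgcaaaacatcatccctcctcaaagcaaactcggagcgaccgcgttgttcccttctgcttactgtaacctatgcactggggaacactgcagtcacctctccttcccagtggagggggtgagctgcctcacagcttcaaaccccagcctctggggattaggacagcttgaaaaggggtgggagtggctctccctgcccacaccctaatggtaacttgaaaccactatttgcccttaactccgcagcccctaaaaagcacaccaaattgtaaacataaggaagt
Ifitm6, chr7:141016843-141017142, minus strand: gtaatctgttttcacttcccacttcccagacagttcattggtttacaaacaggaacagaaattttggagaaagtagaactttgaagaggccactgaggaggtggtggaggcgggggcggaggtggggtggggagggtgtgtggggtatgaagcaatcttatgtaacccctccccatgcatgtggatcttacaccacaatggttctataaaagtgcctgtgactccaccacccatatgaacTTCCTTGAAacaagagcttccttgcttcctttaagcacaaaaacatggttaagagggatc
The first 4 belong to textbook targets and the last 3 to the Schlafen and Ifitm families. The 2 sets do not differ throughout in size of change, since Oas3 (-1.60) moved further than Ifitm6 (-1.51). Of the Ifitm genes not printed, Ifitm2 held 1 ISRE core and Ifitm3 held 2. Ifit1 held 3 ISRE cores, at 109, 103 and 84 bases before its start, and Isg15 held 3 overlapping ones from 78 to 66 bases before its start. Oas3 held 2 at 75 and 69 bases, and the GTPase Gbp2 held 1 at 58 bases. In Slfn1 and Ifitm1 neither core was found, and Ifitm6 held 1 GAS core at 10 bases before its start. The search takes only exact matches within this window, and it found neither core in Irf7, Oasl1, Oasl2, Cmpk2 and Xaf1 either. A missing match therefore does not show that a gene lacks an interferon element.

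The 36 genes have 41 promoters, since 5 genes have 2 each. Of the 41, 23 (56.1%) held an ISRE core and 10 (24.4%) a GAS core, beside 8.56% and 8.3% of all 32851 RefSeq promoters of the same length. Counted by gene, with a core in any promoter of the gene, 22 of the 36 held an ISRE core and 10 a GAS core. By outcome, an ISRE core was present in 5 of the 10 members with a promoter that were lower in Rpl22-/- libraries, in 4 of the 5 that were higher and in 13 of the 21 that did not pass. A GAS core was present in 1, 1 and 8 of these. Among the 6 GTPases with a promoter, 5 held an ISRE core and 2 a GAS core. Genes with the element thus fell in all 3 outcomes.

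The interferon-stimulated genes did not move as a block. With an adjusted p under 0.05, 11 of the 48 were lower in Rpl22-/- libraries, 5 were higher and 32 did not pass, beside 13.8% lower and 13.7% higher among all 16656 genes tested. With a difference of more than 2-fold as well, 7 were lower and 3 higher, beside 8.54% and 8.93% of all genes. The median log2 fold change of the members was -0.01 and that of all tested genes was 0.07, with 24 members below 0 and 24 above. The members nonetheless ranged from -2.94 for Slfn1 to 5.50 for Ifitm1. In 15 members every Rpl22-/- library lay below every Rpl22+/+ library and in 8 every one lay above, beside 22.2% and 23.9% of all genes, and in 25 the groups overlapped.

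**Figure D1:**
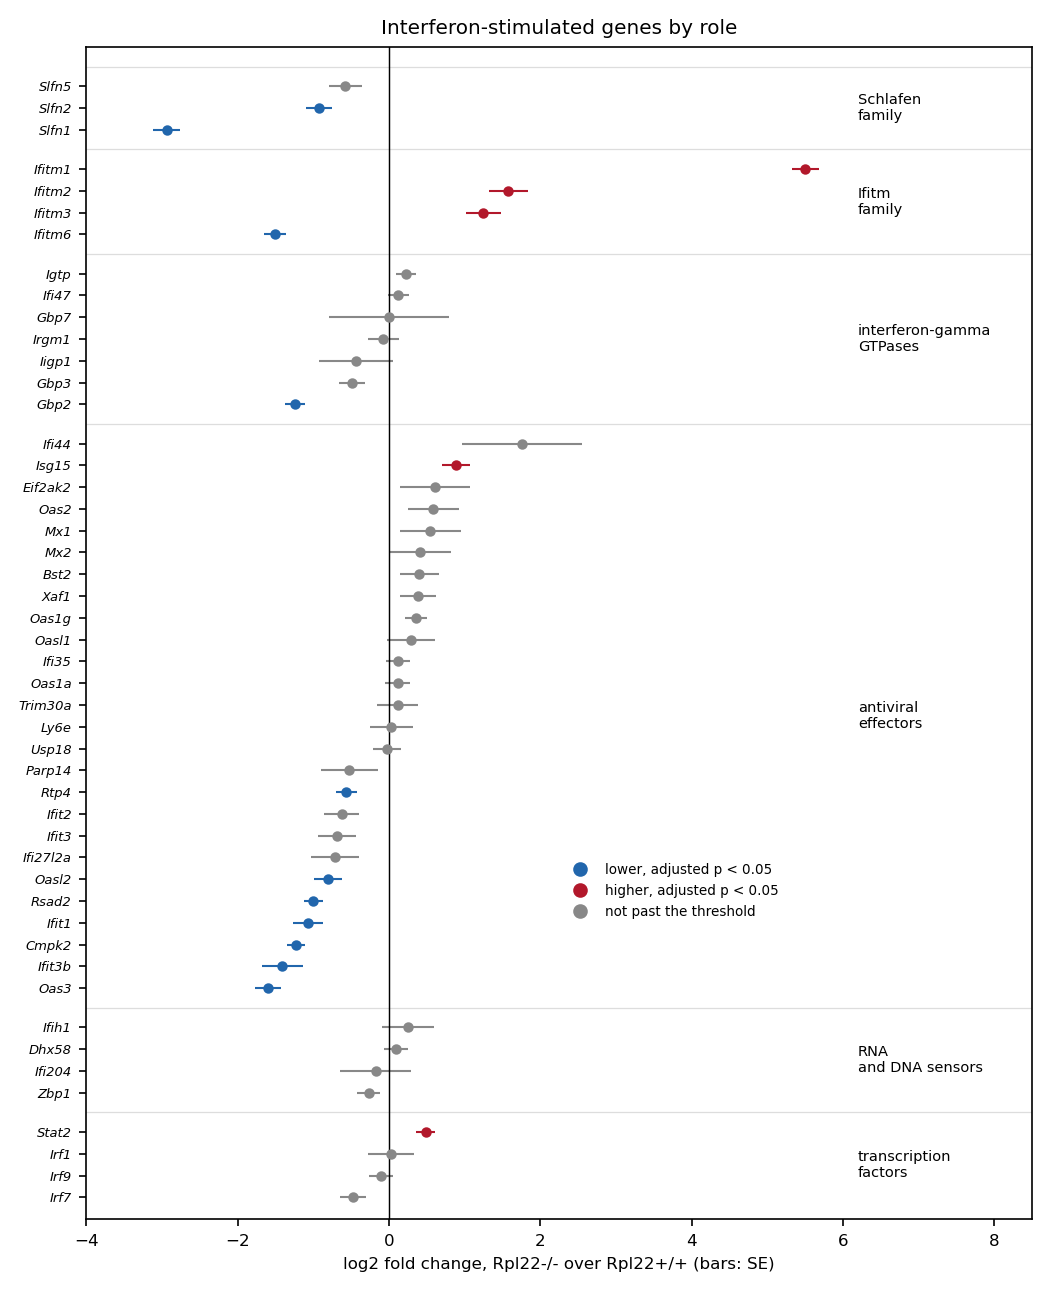
Log2 fold change of the 48 interferon-stimulated genes, Rpl22-/- over Rpl22+/+ (x axis, bars are SE), grouped by role (y axis), with blue for the 11 lower genes, red for the 5 higher genes and gray for the 32 that did not pass. Ifitm1 stands alone at 5.50, Slfn1 lies lowest at -2.94, and the antiviral effectors spread to both sides of 0.

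The Ifitm genes, whose small membrane proteins block the fusion of viruses with the cell, gave the widest contrast. Ifitm1 stood at 12.2, 10.4 and 11.7 CPM in Rpl22+/+ libraries and at 499, 580.4 and 476 CPM in Rpl22-/- libraries, a 45.4-fold rise (log2 fold change 5.50 ± 0.18 SE, adjusted p = 2e-05). The groups were far apart and each was narrow. Ifitm2 rose from 164, 302 and 194 CPM to 603, 758 and 605 CPM (1.58 ± 0.26, adjusted p = 0.00554). Ifitm3, the family member best known for restricting influenza virus, rose from 201, 344 and 235 CPM to 588, 696 and 566 CPM (1.25 ± 0.23, adjusted p = 0.00875). In both, Rpl22+/+ replicate 2 was the highest of its group and still lay below all Rpl22-/- libraries. Reads of Ifitm2 and Ifitm3 are hard to separate because the genes are similar in sequence, so their single values are uncertain.

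Ifitm6, a member expressed mainly in myeloid cells, went the other way. It stood at 602, 635 and 606 CPM in Rpl22+/+ and at 244, 209 and 194 CPM in Rpl22-/- libraries (-1.51 ± 0.15, adjusted p = 0.000699). On the TPM scale, which compares genes by length, the ratio of Ifitm1 to Ifitm6 was 0.0169, 0.0170 and 0.0165 in Rpl22+/+ and 2.33, 3.21 and 2.83 in Rpl22-/- libraries, so the more abundant of the pair switched. The 4 genes together summed to 2627, 2681 and 2795 TPM in Rpl22+/+ and to 5515, 5656 and 5063 TPM in Rpl22-/- libraries. They lie within 63.1 kb of chromosome 7 in the order Ifitm2, Ifitm1, Ifitm3 and Ifitm6 (GRCm39), so the lower gene sits at the edge of the cluster beside Ifitm3.

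The make-up of Ifitm1 transcripts also differed, which was looked at after the gene's values were seen and was not tested. All 3 Ifitm1 transcripts with a level are annotated as protein coding. Transcript ENSMUST00000106040 held 32.6%, 67.7% and 38.7% of the Ifitm1 TPM in Rpl22+/+ and 77.6%, 78.6% and 78.6% in Rpl22-/- libraries. Transcript ENSMUST00000106042, the longest of the 3, held 57.7%, 19.2% and 52.1% against 3.06%, 1.17% and 1.37%. In level it stood at 15.8, 4.32 and 14.0 TPM against 48.1, 18.98 and 20.0 TPM, so its share was lower while its level was higher in each Rpl22-/- library than in any Rpl22+/+ library. Transcript ENSMUST00000106040 stood at 8.92, 15.2 and 10.4 TPM against 1218, 1279 and 1145 TPM. The shares in Rpl22+/+ rest on fewer reads, with 2501 for the gene over 3 libraries against 127266 in Rpl22-/- libraries.

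**Figure D2:**
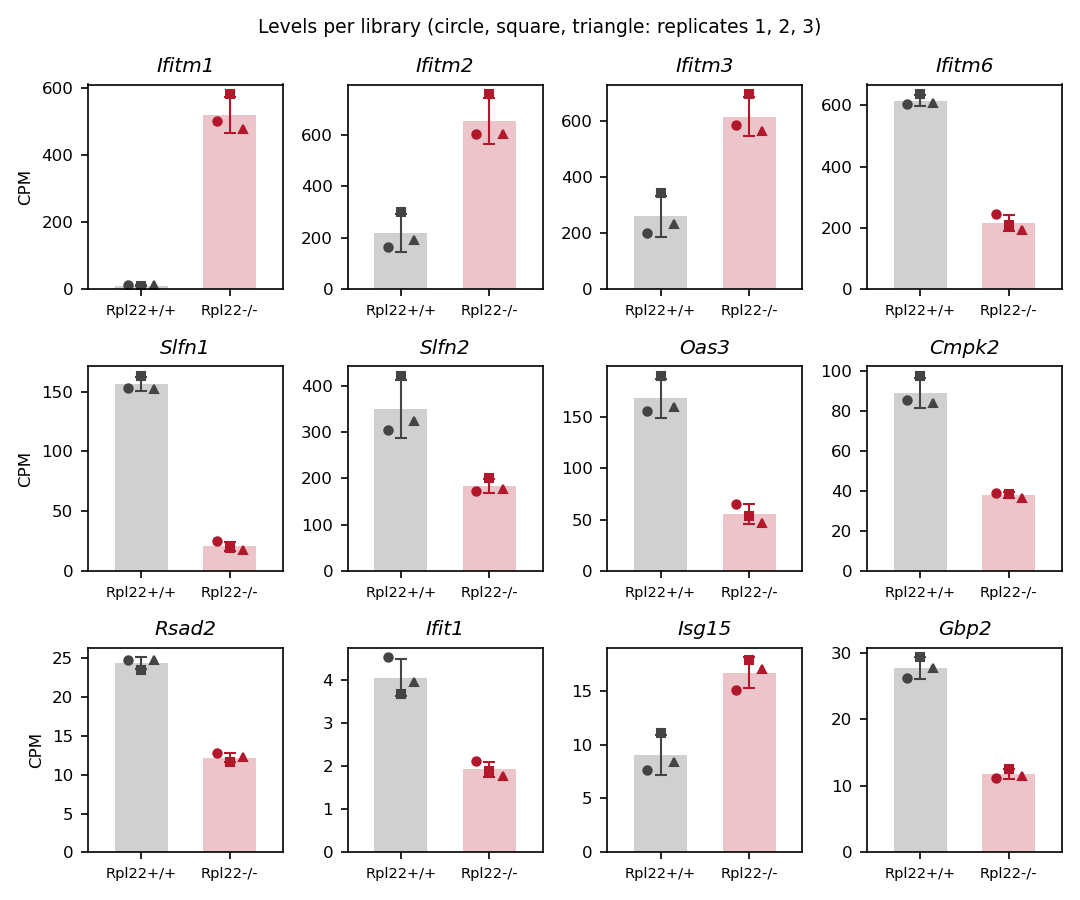
CPM (y axis, from 0) of 12 interferon-stimulated genes in each library, with gray for Rpl22+/+ and red for Rpl22-/-, bars for group means and error bars for the SD of 3 libraries. Ifitm1, Ifitm2, Ifitm3 and Isg15 are higher and the other 8 genes lower in all Rpl22-/- libraries.

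Schlafen genes encode a family that restrains the growth of T cells and myeloid cells and, in some members, limits viral translation. Slfn1 fell from 154, 163 and 152 CPM to 25.1, 18.8 and 17.5 CPM, a 7.65-fold difference (-2.94 ± 0.18, adjusted p = 0.000132). Slfn2 fell from 305, 422 and 324 CPM to 172, 202 and 178 CPM (-0.93 ± 0.17, adjusted p = 0.00861). Neither gene's groups overlapped. Slfn5 stood at 69.6, 49.6 and 83.6 CPM against 48.2, 38.1 and 49.5 CPM and did not pass (-0.58 ± 0.22, adjusted p = 0.0979). Without Rpl22+/+ replicate 2 it passed (-0.81, adjusted p = 0.00497). Summed over the 3 genes, the level was 406, 393 and 417 TPM in Rpl22+/+ and 190.3, 182 and 179.6 TPM in Rpl22-/- libraries. Schlafen paralogs share sequence, so reads may have been split between them.

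Schlafen neighbors on chromosome 11 were read as well. Of 7 Slfn genes tested within 264 kb, 3 were lower (Slfn1, Slfn2 and Slfn4) and none passed as higher. Slfn4, which is not one of the 48, varied most among the Rpl22+/+ libraries, with 1923 and 1432 CPM in replicates 1 and 3 and 148 CPM in replicate 2, against 225, 61.3 and 117 CPM in Rpl22-/- libraries. Its groups overlapped although it passed (-3.12 ± 0.93, adjusted p = 0.0476).

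Among the 26 antiviral effectors, 7 were lower, 1 was higher and 18 did not pass, beside 13.8% lower and 13.7% higher among all genes. Oas3, which makes the 2-5A messenger that activates RNase L, fell most, from 155, 190.1 and 159 CPM to 65.5, 53.9 and 47.0 CPM (-1.60 ± 0.17, adjusted p = 0.00112). Cmpk2, a mitochondrial nucleotide kinase, fell from 85.7, 97.8 and 84.3 CPM to 39.1, 38.8 and 36.4 CPM (-1.23 ± 0.12, adjusted p = 0.000856). Its neighbor Rsad2 encodes viperin, which makes a chain-terminating nucleotide, and fell from 24.8, 23.5 and 24.8 CPM to 12.7, 11.6 and 12.2 CPM (-1.0 ± 0.12, adjusted p = 0.00191). These 3 genes were tight within each genotype. Cmpk2 and Rsad2 lie next to each other on chromosome 12 (GRCm39 26519203 to 26529836 and 26492745 to 26506451).

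Ifit genes encode proteins that bind viral RNA lacking the host cap marks. Ifit1 stood at 4.51, 3.67 and 3.94 CPM against 2.11, 1.89 and 1.77 CPM (-1.08 ± 0.20, adjusted p = 0.00873). Ifit3b stood at 2.28, 1.59 and 1.79 CPM against 0.588, 0.729 and 0.793 CPM (-1.41 ± 0.27, adjusted p = 0.00992). Both were lower in every Rpl22-/- library at a low absolute level. Ifit2 (-0.62, adjusted p = 0.0956) and Ifit3 (-0.69, adjusted p = 0.0923) did not pass, but passed without Rpl22+/+ replicate 2 (-0.88 and -0.94, adjusted p = 0.00239 and 0.00658). Ifit3 and Ifit3b are near-identical copies, so the split of reads between them is uncertain.

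Isg15, a ubiquitin-like protein that is conjugated to other proteins, was the effector that rose. It stood at 7.65, 11.1 and 8.38 CPM in Rpl22+/+ and at 15.1, 17.9 and 17.0 CPM in Rpl22-/- libraries (0.88 ± 0.19, adjusted p = 0.0141). The groups did not overlap, yet the call was lost without Rpl22+/+ replicate 1, Rpl22+/+ replicate 3 or Rpl22-/- replicate 3 (adjusted p = 0.0520, 0.0651 and 0.0567). Isg15 lies 3.87 Mb from Rpl22 on chromosome 4, where genes averaging 50 counts or more had a median log2 fold change of 0.43, and the part of that shift in the Isg15 value was not tested. Usp18, the protease that removes Isg15 from proteins, had a log2 fold change of -0.03 ± 0.18 (adjusted p = 0.936).

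Oasl2 and Rtp4 also passed as lower, at -0.81 ± 0.18 (adjusted p = 0.0180) and -0.56 ± 0.14 (adjusted p = 0.0254). Both calls were lost without Rpl22+/+ replicate 1, Rpl22+/+ replicate 3, Rpl22-/- replicate 2 or Rpl22-/- replicate 3, with adjusted p from 0.0577 to 0.0783 for Oasl2 and from 0.0625 to 0.104 for Rtp4. The 18 effectors that did not pass ranged from -0.71 for Ifi27l2a to 1.76 for Ifi44. Ly6e, by far the most abundant, stood at 882 to 1667 CPM in Rpl22+/+ and at 961 to 1382 CPM in Rpl22-/- libraries (0.03 ± 0.28, adjusted p = 0.954). Ifi44 had a large value on few reads, 40 in all Rpl22+/+ libraries against 146 in Rpl22-/- libraries (1.76 ± 0.79, adjusted p = 0.153).

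The OAS genes show how near neighbors differed. Of 6 Oas genes tested within 177 kb of chromosome 5, Oas3 was lower and the other 5 did not pass. Oas2, the gene beside Oas3, stood at 121, 61.6 and 112 CPM against 205, 107 and 129 CPM, with overlapping groups (0.59 ± 0.33, adjusted p = 0.251). Oas1a and Oas1g, copies that can share reads, had values of 0.12 and 0.36 (adjusted p = 0.664 and 0.112). In a fit with a term for the replicate number, Oas2 passed as higher (0.59, adjusted p = 0.0398). With a GC correction added to that fit, Oas1g passed as well (0.36, adjusted p = 0.0362). In the Ifit cluster of 5 genes within 99.3 kb of chromosome 19 all values were negative and 2 passed. No test of the difference between neighbors was made.

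**Figure D3:**
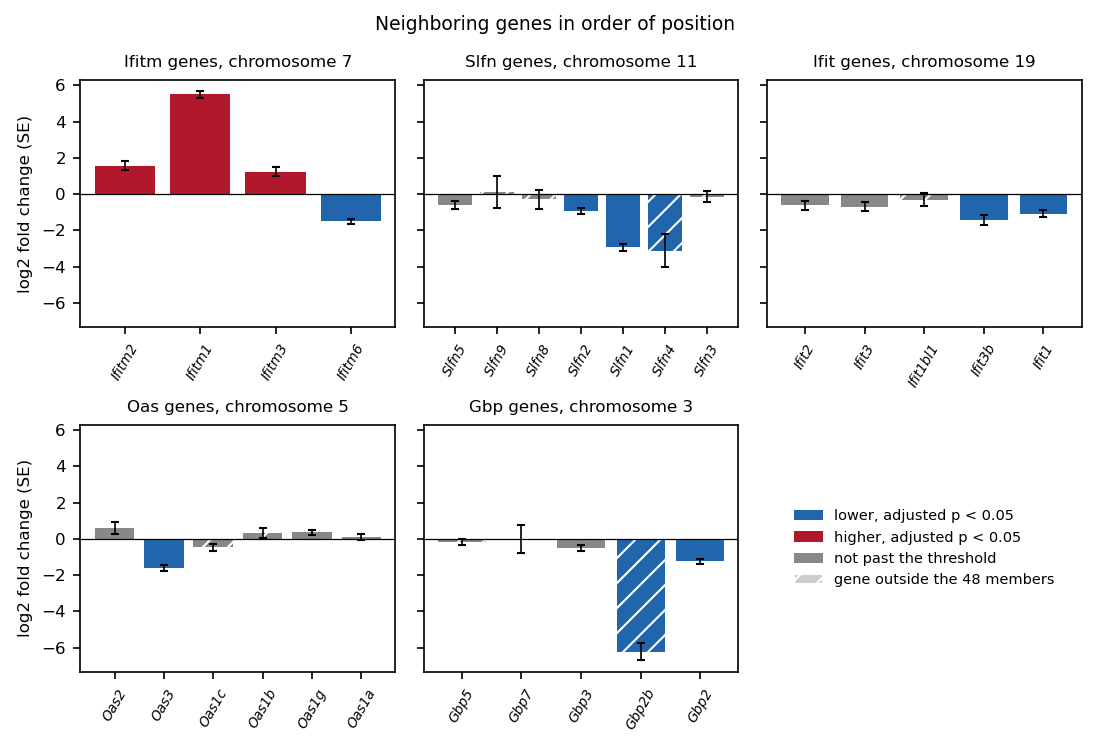
Log2 fold change, Rpl22-/- over Rpl22+/+ (y axis, bars are SE), of genes in order of position in 5 clusters, with hatching for genes outside the 48. The Ifitm cluster holds 3 higher genes and 1 lower gene, the Oas cluster 1 lower gene among 6, and Gbp2b reaches -6.23 beside Gbp2.

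Of the 4 transcription factors, 1 was higher and 3 did not pass. Stat2 rose from 68.7, 72.2 and 72.9 CPM to 109, 93.9 and 95.8 CPM (0.48 ± 0.12, adjusted p = 0.0279). The groups did not overlap, but the call was lost without Rpl22+/+ replicate 1, Rpl22+/+ replicate 3, Rpl22-/- replicate 1 or Rpl22-/- replicate 3, with adjusted p from 0.0821 to 0.10. Irf7, the factor that amplifies type I interferon production, stood at 59.7, 85.9 and 67.7 CPM against 47.3, 53.7 and 52.2 CPM and did not pass (-0.48 ± 0.17, adjusted p = 0.0776). Its groups did not overlap, and it passed under 9 of 17 alternatives, with adjusted p from 0.00493 to 0.211. Irf9 stood at 96.2, 126 and 106 CPM against 95.6, 93.2 and 116 CPM (-0.11 ± 0.16, adjusted p = 0.675). Irf1 stood at 132, 179 and 156 CPM against 105, 137 and 234 CPM (0.03 ± 0.30, adjusted p = 0.962), with Rpl22-/- replicate 3 the highest of the 6. Neither Irf9 nor Irf1 separated the genotypes.

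Behind the modest Irf7 difference, some of its transcripts shifted more, which was looked at after the values were seen and was not tested. The annotated retained-intron transcript ENSMUST00000155744 held 30.2%, 17.3% and 21.2% of the Irf7 TPM in Rpl22+/+ and 56.7%, 43.6% and 37.4% in Rpl22-/- libraries. The protein-coding transcript ENSMUST00000026571 held 33.0%, 41.6% and 37.3% against 14.0%, 18.5% and 20.5%. In level, the latter stood at 15.6, 22.0 and 20.2 TPM against 5.43, 7.24 and 8.48 TPM. For both transcripts the ranges of the genotypes were apart, although Salmon's split of reads between overlapping transcripts is an estimate. Shares of ENSMUST00000097952 overlapped, at 12.6%, 15.4% and 12.0% in Rpl22+/+ and 7.63%, 13.3% and 13.2% in Rpl22-/- libraries.

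None of the 4 sensors passed, and in all 4 the groups overlapped. Ifih1 (MDA5), a sensor of long double-stranded RNA, stood at 34.1, 14.2 and 33.2 CPM against 37.9, 26.2 and 32.7 CPM (0.25 ± 0.34, adjusted p = 0.655). Dhx58 (LGP2), its regulator, stood at 31.9, 43.3 and 33.7 CPM against 38.9, 41.9 and 35.6 CPM (0.10 ± 0.16, adjusted p = 0.716). Zbp1, a sensor of Z-form nucleic acid that can start necroptosis, stood at 42.1, 57.9 and 49.0 CPM against 39.9, 43.9 and 39.8 CPM (-0.27 ± 0.15, adjusted p = 0.252). The low value of Ifih1 in Rpl22+/+ replicate 2 recurred in Ifi204, a DNA-binding protein of the HIN-200 family. Ifi204 stood at 23.7, 6.81 and 26.1 CPM against 16.0, 13.8 and 20.4 CPM (-0.17 ± 0.47, adjusted p = 0.830) and passed as lower without that library (-0.62, adjusted p = 0.0285).

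The interferon-gamma GTPases comprise guanylate-binding proteins (Gbp2, Gbp3 and Gbp7) and immunity-related GTPases (Ifi47, Igtp, Irgm1 and Iigp1). Of the 7, Gbp2 was lower and 6 did not pass. Gbp2 fell from 26.2, 29.4 and 27.7 CPM to 11.2, 12.6 and 11.5 CPM, a 2.36-fold difference with narrow groups (-1.24 ± 0.13, adjusted p = 0.000995). Gbp3 stood at 35.8, 25.3 and 34.5 CPM against 20.5, 24.7 and 22.9 CPM (-0.49 ± 0.18, adjusted p = 0.0832). Gbp7 stood at 39.4, 3.23 and 38.2 CPM against 36.9, 18.8 and 25.4 CPM (0.00 ± 0.79, adjusted p = 0.999). Rpl22+/+ replicate 2 thus held far less Gbp7 than the other libraries of its group. Gbp3 and Gbp7 share sequence, so their split is uncertain.

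None of the 4 immunity-related GTPases, which damage pathogen vacuoles, passed. Ifi47 stood at 27.9, 34.7 and 28 CPM against 33.9, 33.9 and 30.9 CPM (0.12 ± 0.14, adjusted p = 0.583). Igtp (Irgm3) stood at 28.1, 32.2 and 26.7 CPM against 36.4, 32.8 and 32.8 CPM (0.23 ± 0.13, adjusted p = 0.257). Irgm1, a regulator of the other members, stood at 35.7, 30.3 and 36.7 CPM against 35.4, 23.7 and 38.5 CPM (-0.07 ± 0.21, adjusted p = 0.835). Only in Igtp, among these 3, were the groups apart. Iigp1 (Irga6) stood at 5.16, 1.22 and 3.75 CPM against 2.62, 2.29 and 2.59 CPM (-0.43 ± 0.48, adjusted p = 0.569), again with Rpl22+/+ replicate 2 as the lowest of the 6.

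Set beside each other, neither the type I genes nor the GTPases were shifted far from 0 in the median over all 6 libraries. Of the 33 type I genes, 7 were lower and 2 higher, beside 13.8% and 13.7% of all genes. By more than 2-fold 4 were lower, beside 8.54% of all genes. The median log2 fold change of the 33 was 0.03. Of the 7 GTPases, 1 was lower and 0 higher, with a median of -0.07. Summed levels overlapped between genotypes in both. The 32 type I genes other than Ly6e summed to 882 ± 49.9 TPM in Rpl22+/+ and 863 ± 54.2 TPM in Rpl22-/- libraries (SD, n = 3 each), and the GTPases to 103 ± 19.7 TPM and 99.3 ± 13.6 TPM. The difference between the 2 classes was not tested.

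The GTPase median depended on Rpl22+/+ replicate 2. Without it the GTPase median was -0.58 and the type I median -0.04. Gbp3 (-0.67, adjusted p = 0.00713) and Iigp1 (-0.88, adjusted p = 0.0169) then passed as lower beside Gbp2. That median is the value of Gbp7 alone (-0.58, adjusted p = 0.103), the GTPase with the lowest ratio in the omitted library. Ifi47, Igtp and Irgm1 stood at 0.19, 0.26 and -0.21 in the same fit. Leaving out Rpl22-/- replicate 2 instead gave a GTPase median of 0.088. Over all members, 19 were lower and 8 higher without Rpl22+/+ replicate 2, beside 19.6% and 21.3% of all genes. The 16 genes that passed with all libraries were among these 27. The 11 that joined were Bst2, Gbp3, Ifi204, Ifi44, Ifit2, Ifit3, Iigp1, Irf7, Oas1g, Parp14 and Slfn5.

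Rpl22+/+ replicate 2 held 8 members at under 0.5 times the mean of the other Rpl22+/+ libraries: Ifih1, Ifi204, Mx1, Ifi44, Parp14, Eif2ak2, Gbp7 and Iigp1. The ratio ranged from 0.0503 for Ifi44 and 0.0832 for Gbp7 to 0.423 for Ifih1. In all of them but Ifi44, Rpl22-/- replicate 2 was also the lowest of its group, as in Gbp7 at 36.9, 18.8 and 25.4 CPM. Deviations from the genotype mean of the 2 libraries numbered 2 correlated at 0.634 over all tested genes. The median GC content of these 8 genes was 44.6% against 49.9% for the other 40. None of the 8 passed with all libraries, but choosing them by a low library also chose a wide spread within Rpl22+/+, so nothing is read from that. With a GC correction in the fit, 14 members were lower and 5 higher, beside 18.2% and 17% of all genes. These were the 16 of the uncorrected fit with Ifit2, Ifit3 and Irf7 added.

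**Figure D4:**
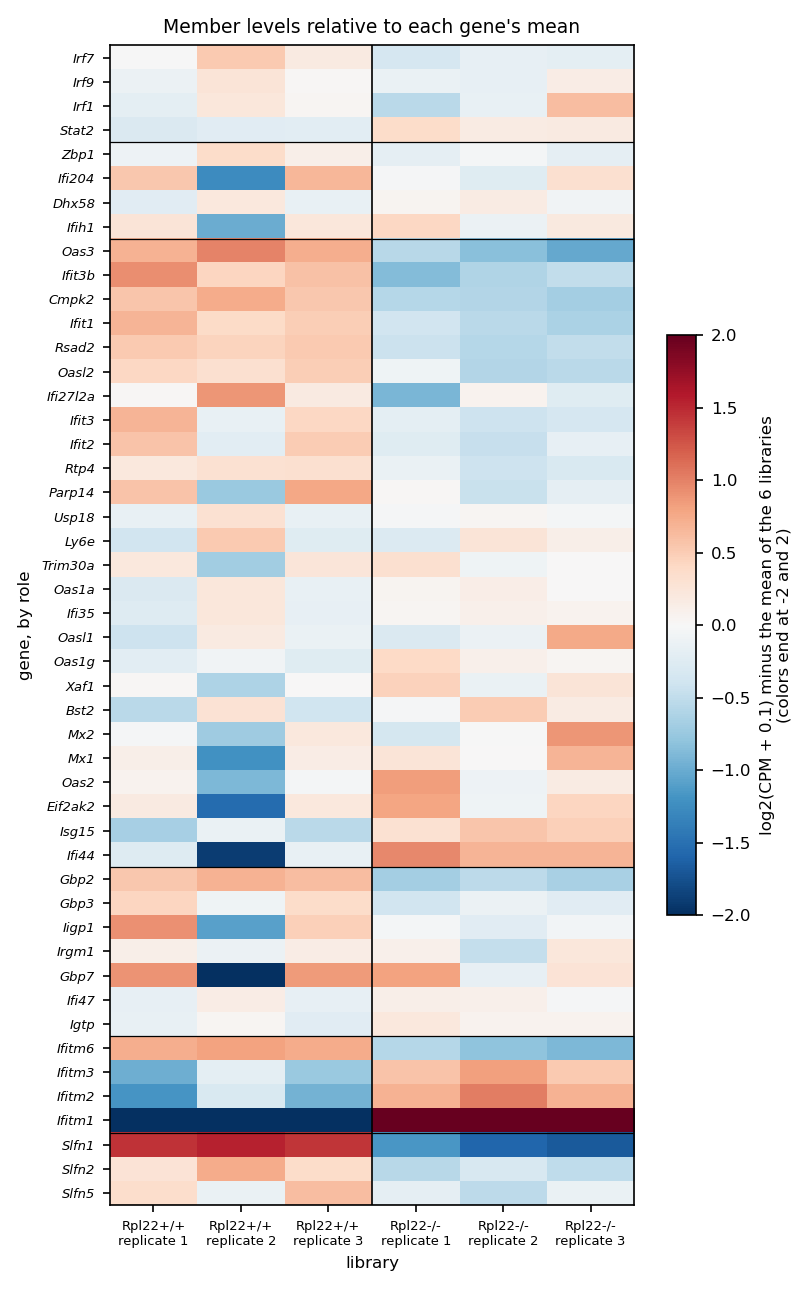
Level of each of the 48 genes (rows, by role) in the 6 libraries (columns) as log2(CPM + 0.1) minus the gene's mean over the libraries, with red above and blue below the mean and colors ending at -2 and 2. Ifitm1, Ifitm6, Slfn1, Oas3 and Gbp2 split the genotypes evenly, and Gbp7 and Ifi44 are far bluer in the second column than in the other Rpl22+/+ columns.

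Upstream of the members, mRNA of the type I and type III interferons was at or near 0, and Ifng mRNA was low but measurable. Of 20 interferon genes, all listed in the files, 15 were at 0 in every library, Ifnb1 among them, and a count of 0 allows up to 3 counts, or 0.0292 to 0.0837 CPM of unscaled library totals (counting error only). The other 5 had reads, and only Ifng could be tested. Ifng stood at 1.05, 0.176 and 0.655 CPM against 0.374, 0.579 and 1.32 CPM, with overlapping groups (0.29 ± 0.71, adjusted p = 0.807).

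Of the 9 receptor chains and kinases, 3 were lower and 1 was higher. Among all genes, 13.8% were lower and 13.7% higher, and these shares also stand beside the lists that follow. Ifngr2, the signaling chain of the interferon-gamma receptor, fell from 84.9, 128 and 95.9 CPM to 39.3, 51.2 and 46.0 CPM (-1.18 ± 0.20, adjusted p = 0.00593). Its ligand-binding partner Ifngr1 rose from 190.1, 241 and 205 CPM to 345, 368 and 287 CPM (0.65 ± 0.16, adjusted p = 0.0259). The 2 chains of one receptor thus moved in opposite directions. Ifnar1, of the type I receptor, fell from 110.3, 139 and 122 CPM to 78.6, 79.5 and 79.7 CPM (-0.64 ± 0.13, adjusted p = 0.0134), while Ifnar2 had a value of 0.10 ± 0.16 (adjusted p = 0.701). Jak1 was lower at the edge of the threshold (-0.40 ± 0.12, adjusted p = 0.0499). Tyk2 (-0.18), Jak2 (-0.03), Ifnlr1 (-0.68) and Il10rb (-0.32) did not pass, with adjusted p from 0.0838 to 0.960.

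Of 6 other STAT and IRF factors, 2 were lower and 1 higher. Irf5, which drives inflammatory cytokines in myeloid cells, had a value of -1.46 ± 0.29 (adjusted p = 0.0108), and Irf2, a repressor that competes with Irf1, one of -0.74 ± 0.15 (adjusted p = 0.0117). Irf3, the factor activated by RNA and DNA sensing, rose (0.60 ± 0.16, adjusted p = 0.0319). None of the 5 inhibitors of signaling passed.

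Of 13 sensing receptors, kinases and adaptors, 3 were higher and 2 lower. Ikbke, a kinase that activates Irf3 and Irf7, rose from 61.9, 63.7 and 64.8 CPM to 261, 186 and 194 CPM (1.75 ± 0.17, adjusted p = 0.000697). Cgas, the sensor of cytosolic DNA, rose (0.89 ± 0.14, adjusted p = 0.00461), as did Ddx58, which encodes the RNA sensor RIG-I (0.66 ± 0.19, adjusted p = 0.0422). The endosomal receptors Tlr7 and Tlr9 fell (-1.28 ± 0.35 and -0.76 ± 0.22, adjusted p = 0.0366 and 0.0404). The sensors outside the 48 therefore included genes that passed in either direction.

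**Figure D5:**
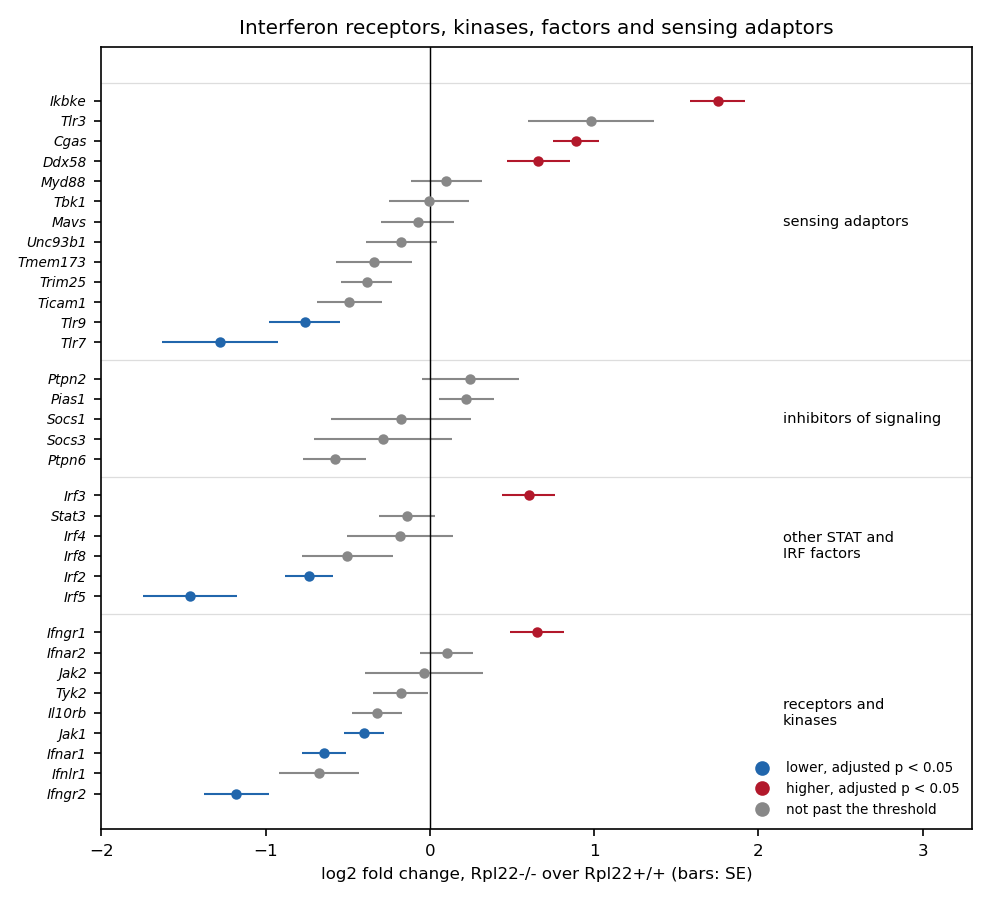
Log2 fold change, Rpl22-/- over Rpl22+/+ (x axis, bars are SE), of receptors, kinases, other factors, inhibitors and sensing genes (y axis), colored blue where lower, red where higher and gray where the gene did not pass. Ifngr1 and Ifngr2 lie on opposite sides of 0, and Ikbke has the highest value at 1.75.

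Further interferon targets outside the 48 were read from lists of the same pathways. Of 33 other type I genes tested, 2 were lower and 1 higher, beside 13.8% and 13.7% of all genes. Samhd1, a nucleotide phosphohydrolase that limits retroviruses, fell from 578, 654 and 636 CPM to 254, 221 and 238 CPM (-1.39 ± 0.14, adjusted p = 0.000759), and Lgals3bp rose (1.03 ± 0.23, adjusted p = 0.0187). Slfn4, described above, was the other lower gene. Of 11 other GTPases tested, Gbp2b alone passed. It stood at 8.53, 5.66 and 8.28 CPM in Rpl22+/+ and at 0.187, 0.0499 and 0.0944 CPM in Rpl22-/- libraries (-6.23 ± 0.48, adjusted p = 0.000329), and it lies next to Gbp2 on chromosome 3. In that cluster of 5 Gbp genes within 144 kb, 2 were lower. Of 17 antigen-presentation and other interferon-gamma targets, Ciita (-0.80 ± 0.20, adjusted p = 0.0274) and H2-T23 (-0.51 ± 0.15, adjusted p = 0.0444) were lower, none was higher and 15 did not pass. Of the 17 values, 10 were positive and 7 negative, and every Rpl22-/- library lay above in 4 genes and below in 2. The summed level of all 18 listed genes was 6707 to 7129 TPM in Rpl22+/+ and 9019 to 9643 TPM in Rpl22-/- libraries, a sum in which B2m (0.39 ± 0.17, adjusted p = 0.134) and H2-K1 (0.56 ± 0.20, adjusted p = 0.0806), subunits of MHC class I, had large shares without passing.

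Markers of other cell types and stages moved with genotype beside these results. Their counts stand beside 13.8% lower and 13.7% higher among all genes. In bulk RNA, fewer cells of a type and less RNA per cell cannot be told apart. Of 12 mature neutrophil markers, 8 were lower in Rpl22-/- libraries, and their summed level was 159084 to 165833 TPM in Rpl22+/+ and 98792 to 120370 TPM in Rpl22-/- libraries. Of 7 markers of the sorted population, 3 were lower, 2 were higher and 2 did not pass. The lower ones were Itgam (-1.02 ± 0.16, adjusted p = 0.00482), Ly6g (-3.49 ± 0.20, adjusted p = 9.7e-05) and Cd33 (-1.46 ± 0.41, adjusted p = 0.0399), and the higher ones were the early granule genes Mpo (2.99 ± 0.28, adjusted p = 0.000663) and Elane (3.48 ± 0.27, adjusted p = 0.00033). All 7 erythroid markers were higher, with sums of 249 to 287 TPM against 1684 to 3067 TPM. Of 9 T and NK cell markers, the 6 of T cells were lower and Ncr1, Klrb1c and Nkg7 higher, with sums of 74.1 to 87.6 TPM against 261 to 345 TPM.

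Other markers moved less or in part. Of 11 monocyte and macrophage markers, 3 were lower and 3 (C1qa, C1qb and C1qc) higher, with sums of 595 to 689 TPM against 314 to 424 TPM. Of 6 B cell markers, Pax5 was lower, with sums of 399 to 506 TPM against 286 to 390.5 TPM. None of 7 markers of plasmacytoid dendritic cells, the main producers of type I interferon, passed, although all 7 values were negative and in 4 every Rpl22-/- library lay below, with sums of 233 to 243 TPM against 154 to 198 TPM. Their defining gene Siglech stood at 0.349 to 0.735 CPM in all libraries. No tested marker of platelets or of stroma and endothelium passed, and Pf4 and Ppbp had at most 7 reads per genotype. The part of these cell markers in the interferon-stimulated genes was not tested.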

How the data were processed

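RNA was sequenced from 6 libraries of CD11b+Gr1+ splenocytes, 3 per genotype as the sample titles give it. Per the methods of the study, polyadenylated RNA was made into stranded libraries for paired-end sequencing, and the authors used Trimmomatic for trimming and Salmon for transcript quantification. The versions and the transcript set are not given in the sources used here. The authors deposited estimated counts per transcript and TPM (transcript abundance scaled for length, with a fixed total) for each library. The authors also deposited a DESeq2 table of the genotypes, of which only the base mean (a normalized signal averaged over the 6 libraries) and the gene positions were used. Its fold changes, errors, test statistics and p-values were not used. Positions are on GRCm39 per the labels.

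The estimated counts of the transcripts of each GENCODE vM21 gene were added up and rounded. Of 276623 listed transcripts, 136036 were matched, and they held 98.0% to 98.1% of the reads. Of 29374 genes with reads, 16656 passed the filterByExpr filter. The main test was edgeR's quasi-likelihood F test (edgeR 4.0.16, R 4.3.3) between genotypes after TMM scaling, with Benjamini-Hochberg adjustment over the 16656 genes and a threshold of 0.05. The standard error is that implied by the F statistic. CPM (counts scaled to a common library total) were computed here on TMM-scaled library sizes and compare libraries within a gene, whereas TPM sums compare genes. Promoter sequences came from RefSeq (GRCm38.p6), matched by symbol, with no conversion between builds.

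The members and the lists were chosen with earlier results of these data known. Values in every library are given for the 4 transcription factors, the 7 GTPases and the 6 members with the smallest p-values in each other group. In the lists of pathway genes, up to 3 genes that passed are named per direction, and all receptors and kinases. The labels do not tell whether libraries of 1 genotype are from separate mice, and the study identifies the sequenced explants by a single mouse for each genotype, so the p-values measure only the spread between these libraries, which may be technical. Alternatives were another normalization (DESeq2 1.42.0 size factors, no composition factor), other filters, the DESeq2 test, limma-voom (limma 3.58.1), log2(TPM + pseudocount), a replicate block, a GC correction and leaving out each library. One gene of the list of other STAT and IRF factors is not reported here.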

Additional observations from a re-analysis of the deposited data

Results flagged for a closer look

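For Mx1, a dynamin-like GTPase, the base mean that the authors deposited was 775.1. The mean of its gene sum over the 6 libraries, divided by size factors, was 315, a ratio of 0.407. The deposited mean is thus above that of the transcripts matched here, and the source of the gap was not tested. For the other 47 members this ratio lay between 0.8 and 1.25. The Mx1 log2 fold change of 0.55 ± 0.40 (adjusted p = 0.370) may therefore cover only a part of that gene's reads.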

How the results depend on the processing

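Over 17 alternatives no member that passed changed sign, and 12 of the 16 passed under all of them, whereas Isg15 passed under 14, Oasl2 and Stat2 under 11 and Rtp4 under 10. Without a composition factor the median of all genes moved from 0.07 to 0.19, and that of the type I genes from 0.03 to 0.19. In that fit 10 members were lower and 7 higher, beside 13.3% and 21.3% of all genes. On the log2(TPM + 1) and log2(TPM + 0.1) scales the type I median was 0.20 and 0.20. Among all genes 19.3% and 19.7% were higher on these scales. Leaving out each library in turn gave 9 to 19 lower members, 3 to 8 higher members, a type I median of -0.053 to 0.046 and a GTPase median of -0.58 to 0.088, the counts of 19 and 8 and the median of -0.58 being those without Rpl22+/+ replicate 2. The shares of all genes ran from 8.47% to 19.6% lower and from 7.21% to 21.3% higher over the same fits. Without Rpl22+/+ replicate 1, Rpl22+/+ replicate 3 or Rpl22-/- replicate 3 the higher members numbered 3, since Isg15 and Stat2 were lost. The type I median was -0.053 without Rpl22-/- replicate 2.

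Replicate numbers are shared between the genotypes, and deviations of same-numbered libraries correlated at 0.479, 0.634 and 0.0974. Libraries of unequal numbers correlated at -0.563 to 0.357. For numbers 1 and 2 the same-numbered library was the best match, and Rpl22+/+ replicate 3 matched Rpl22-/- replicate 1 best. The labels do not say what the numbers stand for, so the main fit held no block and fits with 1 are given beside it. With a replicate block 15 members were lower and 6 higher, beside 16.1% and 17.7% of all genes, with medians of 0.07 (type I) and -0.10 (GTPases). With the replicate block and a GC correction 16 were lower and 10 higher, beside 21.8% and 21.6% of all genes, with medians of -0.01 and -0.13. Ifi44 gave no value under the filter of a mean of at least 50 counts. Counting error is widest for Ifi44, with 40 reads in all Rpl22+/+ libraries.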
